A study of Danio rerio with 8 samples.

Results

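The unfolded protein response and the folding machinery of the endoplasmic reticulum (ER) were followed through 46 genes of the deposited count table, out of 31953 genes in all. Members were chosen by gene symbol alone, by a fixed pattern that takes the stress sensors, ER chaperones, protein disulfide isomerases, translocon subunits and factors of ER-associated degradation. The pattern also took dnajc30b, whose human counterpart is a mitochondrial protein, and an antisense gene that carries the symbol dnajb9b. Of the 46, 45 passed the filter on low counts and were tested. The antisense gene had 0 to 2 reads in any library and was not tested.

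RNA was measured by sequencing in whole zebrafish (Danio rerio) embryos cultured for 72 h in high glucose (n = 3 libraries), in high salt (n = 2) or under control conditions (n = 3). All embryos were otherwise grown by the standard protocol. No strain, no stage at the start of treatment and no glucose or salt concentration was given in the sources used here. The comparisons set each treatment against control and the treatments against each other, so that every pair of comparisons shares the libraries of 1 group. The labels do not say whether the libraries of 1 group stem from different clutches, and p-values therefore measure only how much these libraries differ, which may be technical. Whole embryos were used, so that fewer cells of a type and less RNA per cell cannot be told apart.

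Proteins that enter the secretory pathway are threaded into the ER through the Sec61 channel and fold there with the help of chaperones, lectins and disulfide isomerases. When unfolded proteins build up, the membrane sensors Ire1 (gene ern1), Atf6 and Perk (gene eif2ak3) raise chaperone production, slow translation and increase the removal of misfolded proteins by ER-associated degradation. In zebrafish embryos xbp1, the transcription factor downstream of Ire1, is known for strong expression in secretory tissues such as the hatching gland. Counts per gene do not tell the spliced from the unspliced form of xbp1 mRNA.

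Libraries are named by group and by the suffix of their column (1m, 2f, 2m), whose meaning is not stated, and values of a group are given in that order (1m and 2m for salt). Total counts ran from 14.65 to 17.32 M per library, so that 3 counts corresponded to 0.171 to 0.226 CPM (counts scaled to 1 M of the TMM-adjusted library total). The members together took 0.401% to 0.5% of the counts in glucose, 0.579% and 0.678% in salt and 0.470% to 0.657% in controls. Control 1m and salt 2m stood apart. Salt 2m had the lowest TMM factor (0.891) and the lowest mitochondrial share of counts, 2.23% against 3.65% to 5.39% in the other libraries, and it was the highest library for 24.2% and the lowest for 26.7% of all tested genes (9 members each). The part of these features in the salt results was not tested. Of the 45 tested members, 38 (84.4%) were higher in control 1m than in the other controls, against 41% of all 20562 tested genes. Control 1m was also the highest of all 8 libraries for 22 members, against 23.8% of all genes, and glucose 2m was the lowest for 20 (44.4%, against 10.3%).

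Levels were compared between genes only as CPM per kilobase of the gene length in the table. On that scale the members spanned more than 2 orders of magnitude, with ssr3, a subunit of the translocon-associated protein (TRAP) complex, at 249 and the oxidase gene ero1l at 0.607 CPM per kilobase on average over the 8 libraries. The chaperone gene hspa5 followed at 223 CPM per kilobase, with a range of 114 to 370.4 that overlapped the 167 to 445 of ssr3. All 4 TRAP genes and the channel gene sec61a1 were among the 6 highest, and the ranges of these 6 genes over the libraries overlapped. Of the transcription factors, xbp1 averaged 119.7 CPM per kilobase, while the sensor genes atf6, eif2ak3 and ern1 averaged 32.8, 10.1 and 8.32. Within families, pdia3 (142) stood above pdia2 (2.11), edem3 (19.5) above edem2 (7.96), derl1 (33.1) above derl3 (3.82) and ero1lb (5.65) above ero1l, each without overlap over the 8 libraries. The same held for sec61a1 (147) above sec61al2 (40), whereas ssr3 and ssr2 (172), the highest and lowest TRAP genes, overlapped.

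**Figure D1:**
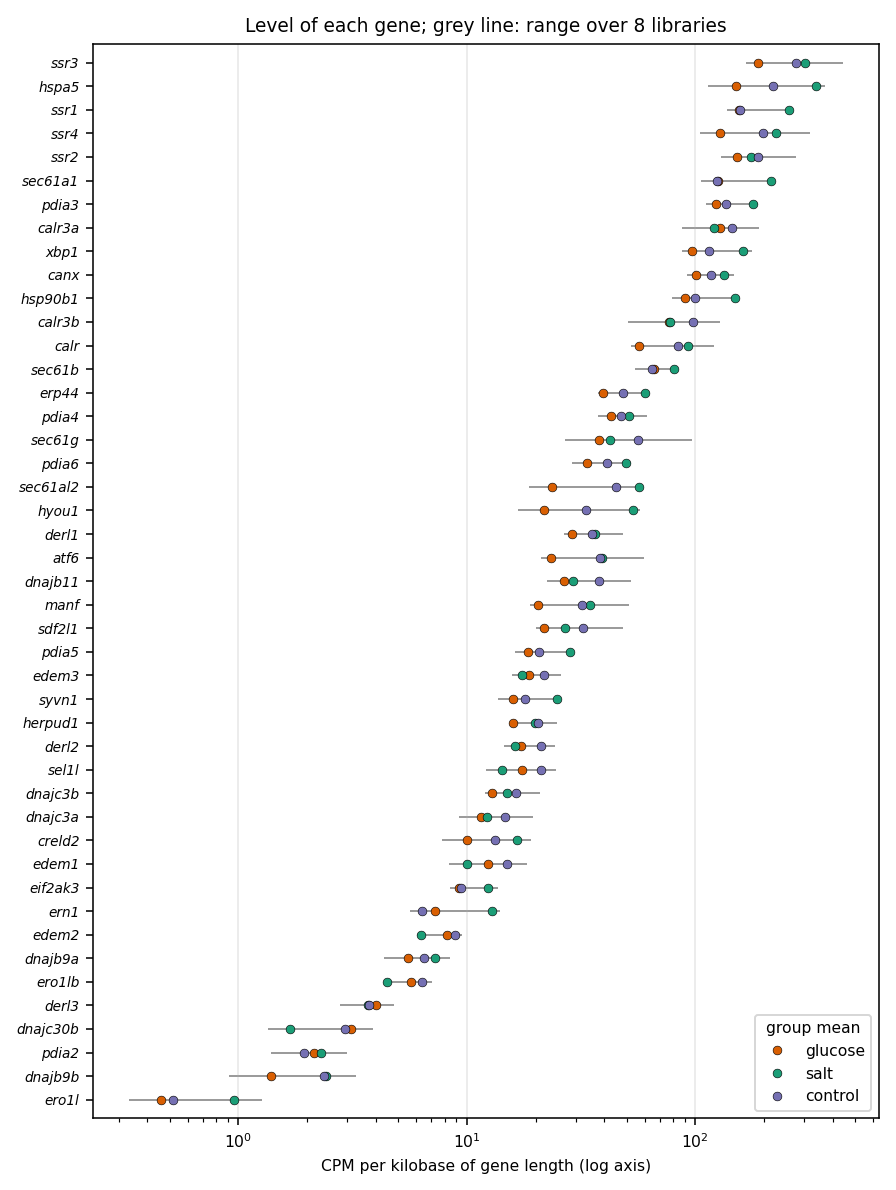
Level of each of the 45 tested genes in CPM per kilobase of gene length, on a log axis, with a dot for the mean of each group (glucose, salt, control) and a grey line for the range over the 8 libraries. The TRAP genes, hspa5 and sec61a1 lie at the top and ero1l lies at the bottom.

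In glucose embryos most members stood below controls, and no member passed the test. The median log2 fold change over the 45 tested members was -0.28, with 39 below 0, whereas over all tested genes it was -5.87e-05 with 50.0% above 0. By edgeR's quasi-likelihood test 0 members were called in either direction, beside 0% of all genes called higher and 0% called lower (lowest adjusted p = 0.65 among the members). With an unadjusted p below 0.05 there were 4 members lower (sec61al2, hspa5, hyou1 and atf6) and 0 higher. Of all 20562 tested genes, 847 were lower and 380 higher with such a p. DESeq2 called 0 members, beside 93 of all genes lower and 0 higher. The 3 glucose libraries lay below all 3 controls for 6 members (13.3%, against 7.66% of all genes) and above all 3 for 0 members (7.14% of all genes). Without control 1m the median was -0.11, with 34 of 45 below 0. As log2 over the control mean, the members' median was -0.13, -0.35 and -0.39 in the glucose libraries. In controls it was 0.27, -0.09 and -0.26, so that control 2m lay below glucose 1m.

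In salt embryos members lay on both sides of controls. The median was 0.13 with 28 of 45 above 0, beside -0.04 and 47.5% over all genes. The test called 1 member higher, the sensor gene ern1, and 0 lower, beside 2.94% of all genes called higher and 2.41% called lower, so that 2.22% of the members stood near the background. Both salt libraries lay above all 3 controls for 14 members (31.1%, against 18.8% of all genes) and below all 3 for 6 members (13.3%, against 20.6%). With the column suffix as a block, 5 members were called higher, namely ern1, sec61a1, hsp90b1, ssr1 and hyou1, and again 0 lower. Over all genes the block called 1216 higher and 1334 lower, beside 605 and 496 without it. Without control 1m the median was 0.41 and sec61a1 was called beside ern1, with 685 of all genes called higher. Without control 2m the median was -0.00032. With a single control or glucose library other than control 1m left out, 0 members were called. Over all genes these fits called 76 to 274 higher and 71 to 197 lower.

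Set directly against salt, glucose embryos had lower levels of most members. The median was -0.41 with 36 of 45 below 0, beside 0.04 and 52.5% above 0 over all genes. The test called 3 members lower in glucose (sec61al2, hspa5 and hyou1, 6.67% of the members) and 0 higher, beside 3.05% of all genes called lower and 1.9% called higher. The 3 glucose libraries lay below both salt libraries for 27 members (60%, against 21.2% of all genes) and above both for 4 (8.89%, against 23.6%). With the suffix as a block 6 members were called lower, these 3 with hsp90b1, ssr1 and ern1. Over all genes the block called 971 lower, beside 627 without it. The calls depended on single libraries. Without glucose 2f or glucose 2m 0 members were called. Without glucose 1m or control 2f sec61al2 alone was called, and without control 1m there were 14 calls. The number of all genes called lower moved as well. It was 38 without glucose 2f, 52 without glucose 2m, 120 without glucose 1m, 369 without control 2f and 1357 without control 1m. A fit without salt 1m or without salt 2m leaves 1 salt library, so the calls from it are not given in this paragraph. The tallies and ranges over 16 alternative fits below do include such fits, with that without control 1m and salt 2m among them. The members' median was -0.37 without salt 1m and -0.53 without salt 2m.

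**Figure D2:**
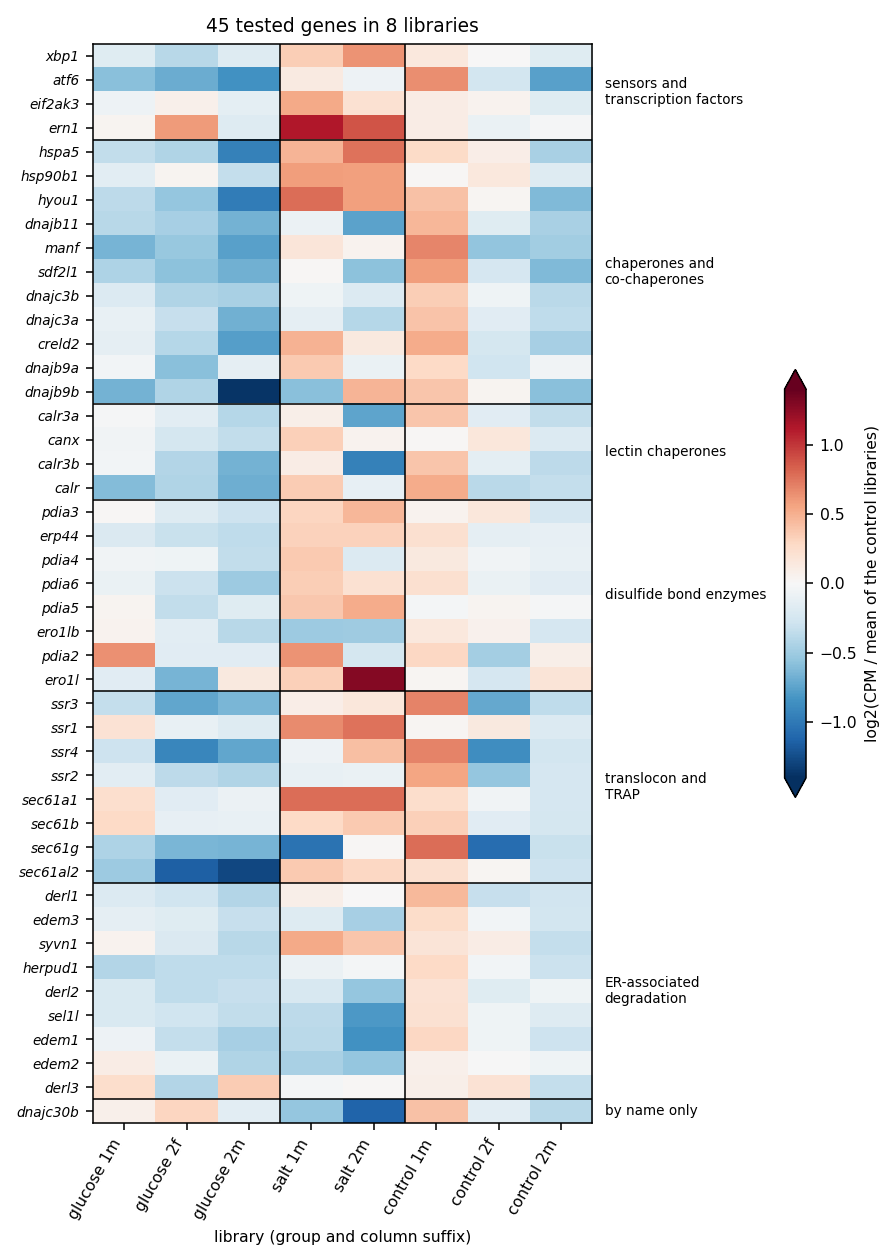
Heat map of log2(CPM over the mean of the 3 control libraries) for the 45 tested genes (rows, grouped by role) in the glucose, salt and control libraries (columns), with colours saturating beyond 1.4 in either direction. Glucose libraries are mostly blue, and so is control 2m, while control 1m is red for most genes. Salt libraries are red for ern1, hspa5, hyou1, hsp90b1, sec61a1 and ssr1 and blue for sel1l, edem1 and edem2.

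**Figure D3:**
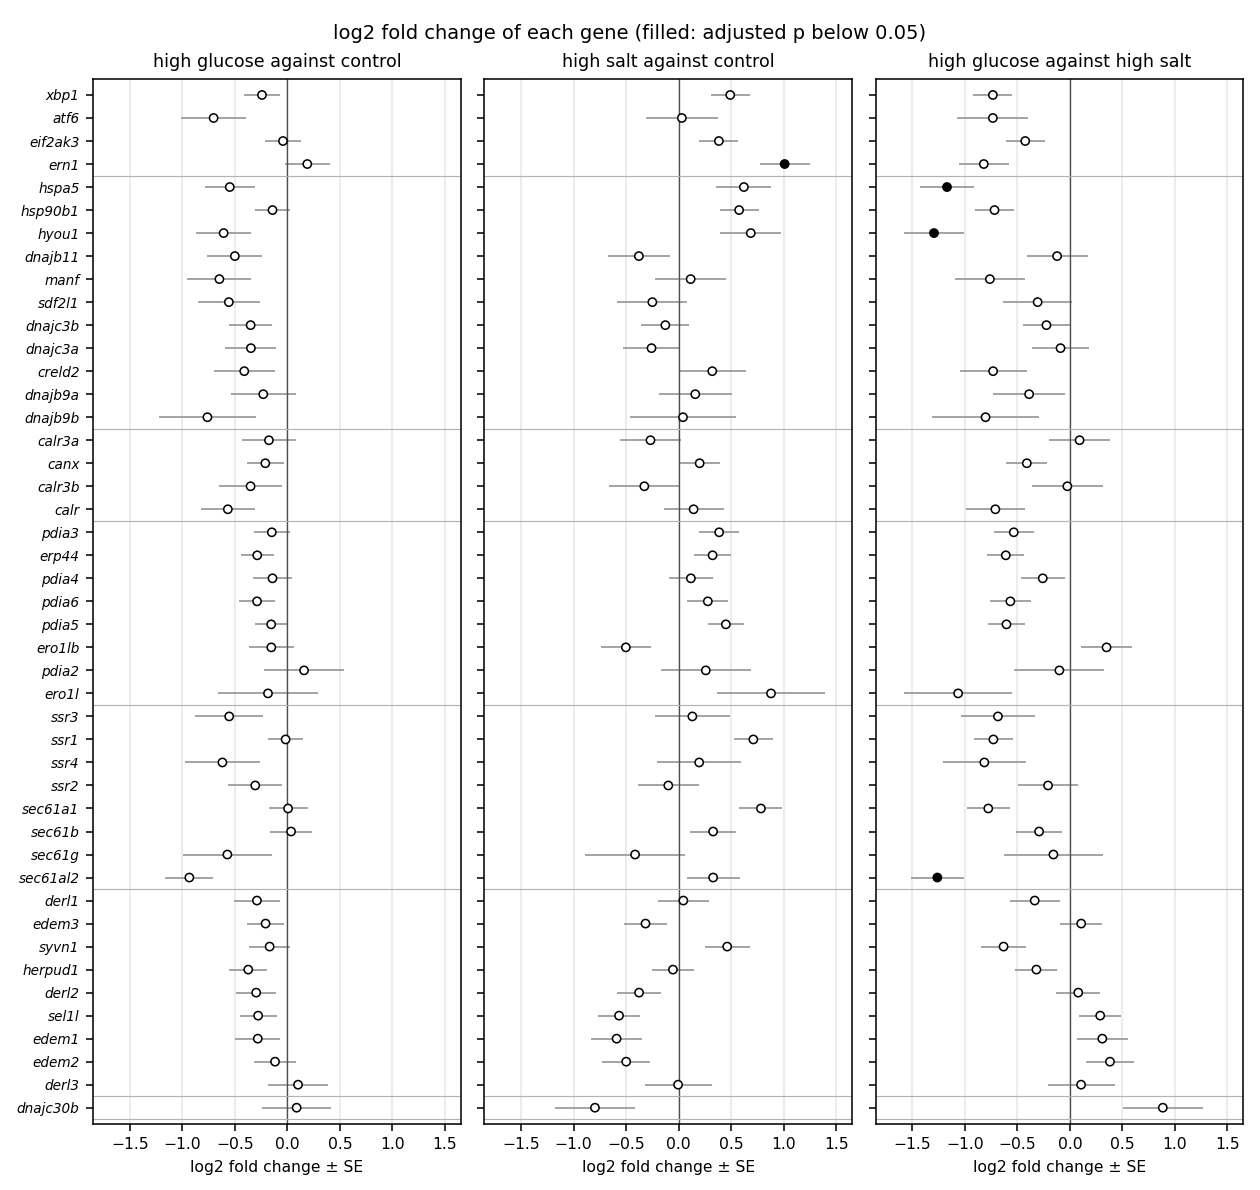
Log2 fold change ± SE of the 45 tested genes (rows, in the same order as in the heat map) for glucose against control, salt against control and glucose against salt, with filled points for adjusted p below 0.05. The filled points are ern1 in salt against control and hspa5, hyou1 and sec61al2 in glucose against salt.

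Among the sensors, ern1, which encodes the kinase and RNase Ire1 (ENSDARG00000013997, chromosome 3, 55163897 to 55222546, minus strand, GRCz11), was the only one of the 4 genes of this role past the test. Its level was 33.9, 49.9 and 29.2 CPM in glucose, 72.1 and 60.9 CPM in salt and 35.4, 31 and 32.7 CPM in controls. Both salt libraries lay above the other 6, and glucose 2f stood above the other glucose libraries and the controls. The gene rose 2.01-fold in salt over control, a log2 change of 1.01 ± 0.24 (adjusted p = 0.0423, and 0.0173 with the suffix as a block). It was called in 6 of 16 alternative fits, with positive log2 values throughout and adjusted p between 0.00392 and 0.18. Glucose differed from control by 0.19 ± 0.22 (adjusted p = 0.843) and from salt by -0.82 ± 0.24 (adjusted p = 0.0747, and 0.0366 with the block). The difference from salt was called in 3 of 16 alternative fits.

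Counts of xbp1, whose product drives many ER genes, gave 242, 208 and 239 CPM in glucose, 344 and 419.8 CPM in salt and 301, 272 and 241 CPM in controls. The salt libraries were the 2 highest of the 8, and glucose and controls overlapped. Salt differed from control by 0.49 ± 0.19 (adjusted p = 0.135) and glucose from salt by -0.73 ± 0.18 (adjusted p = 0.0526). For xbp1 the difference of glucose from salt was called in 6 of 16 alternative fits, that without salt 1m included. The Perk gene eif2ak3 was at 39.6, 43.9 and 37.9 CPM in glucose, 60.2 and 48.5 CPM in salt and 44.9, 43 and 37.1 CPM in controls, again with both salt libraries on top, and differed by 0.38 ± 0.19 between salt and control (adjusted p = 0.229). The membrane-bound transcription factor gene atf6 was at 111, 103 and 92.7 CPM in glucose, 181 and 159 CPM in salt and 261, 139.6 and 98.6 CPM in controls. Here control 1m was the highest library, both salt libraries lay above all glucose libraries, and control 2m lay within the glucose range. Glucose differed from control by -0.70 ± 0.31 (unadjusted p = 0.0454, adjusted p = 0.761). It differed from salt by -0.73 ± 0.34 (adjusted p = 0.215), which was called in 2 of 16 alternative fits. The gene overlaps rxrgb, which lies on the other strand and had 60 to 290 reads. Over the 4 genes of this role the median log2 fold change was -0.14 for glucose against control, 0.44 for salt against control and -0.73 for glucose against salt.

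The chaperones hspa5 (BiP), the Hsp70 of the ER, and hyou1, its nucleotide exchange factor, were both called lower in glucose against salt. Levels of hspa5 (ENSDARG00000103846, chromosome 5, 2440676 to 2448586, plus strand) were 404, 383 and 266 CPM in glucose, 712 and 867 CPM in salt and 617, 547 and 376 CPM in controls. Both salt libraries exceeded every other library, and glucose 1m and 2f lay above control 2m, while each glucose library lay below the control of the same suffix. For hyou1 (ENSDARG00000013670, chromosome 10, 29883780 to 29905126, plus strand) the levels were 104, 91.9 and 67.7 CPM in glucose, 231 and 199.6 CPM in salt and 177, 137 and 87.1 CPM in controls, again with salt above the rest, with control 2m inside the glucose range and with each glucose library below the control of its suffix. Glucose differed from salt by -1.17 ± 0.26 for hspa5 (adjusted p = 0.0373) and by -1.29 ± 0.29 for hyou1 (adjusted p = 0.0373), a 0.444-fold and a 0.408-fold level. Each was called in 10 of 16 alternative fits, with adjusted p up to 0.234 for hspa5 and 0.177 for hyou1. Against control, hspa5 differed by -0.55 ± 0.24 in glucose and 0.62 ± 0.26 in salt, and hyou1 by -0.61 ± 0.26 and 0.69 ± 0.29. None of these 4 values passed (0.761 and 0.171 as adjusted p for hspa5, 0.761 and 0.172 for hyou1), except that hyou1 passed in salt with the block (adjusted p = 0.0428). That was 1 call of hyou1 in salt against control among 16 alternative fits. With the block, glucose against control had an adjusted p of 0.364 for hspa5 and 0.278 for hyou1.

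The Hsp90 of the ER, hsp90b1, was at 249, 284 and 219 CPM in glucose, 413 and 410.1 CPM in salt and 279, 305 and 244 CPM in controls. The salt libraries were close to each other and above the other 6, while glucose and controls overlapped. Salt differed from control by 0.58 ± 0.19 (adjusted p = 0.0934, and 0.0487 with the block) and glucose from salt by -0.72 ± 0.18 (adjusted p = 0.0554, and 0.0331 with the block). These differences were called in 2 and 4 of 16 alternative fits.

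Co-chaperones of BiP with a J-domain stimulate its ATPase, and none passed the test in any comparison. The J-domain protein gene dnajb11 was at 66.5, 63.1 and 55 CPM in glucose, 82.2 and 51.7 CPM in salt and 121, 77.1 and 63.5 CPM in controls, with salt 2m the lowest library and control 1m the highest. Salt differed from control by -0.38 ± 0.29 (adjusted p = 0.448), and this value was 0.24 without control 1m and salt 2m. For sdf2l1, whose product works with that of dnajb11, the values were 36, 32.6 and 30.4 CPM in glucose, 49 and 32.7 CPM in salt and 72.9, 41.2 and 31.8 CPM in controls. All groups overlapped, and the values stood -0.56 ± 0.30 in glucose and -0.25 ± 0.33 in salt from control. The log2 fold changes of dnajc3a and dnajc3b, which encode copies of a BiP co-chaperone known in mammals to restrain Perk, were -0.35 and -0.35 in glucose and -0.26 and -0.13 in salt. The paralogs dnajb9a and dnajb9b, co-chaperones known in mammals to hold Ire1 inactive, were low, at 3.01 to 5.84 CPM and 0.939 to 3.39 CPM, with log2 fold changes of -0.23 and -0.76 in glucose and 0.16 and 0.04 in salt.

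The ER stress factor genes manf and creld2 were high in control 1m. Levels of manf were 33.2, 36.1 and 30.9 CPM in glucose, 59 and 54.2 CPM in salt and 83.7, 35.7 and 37.4 CPM in controls, so that the salt libraries lay between control 1m and the other controls and above all glucose libraries. Those of creld2 were 18.8, 15.5 and 12 CPM in glucose, 28.7 and 22.5 CPM in salt and 29.4, 17.4 and 14.9 CPM in controls, with both salt libraries above all glucose libraries and within the control range. Glucose differed from salt by -0.76 ± 0.34 for manf (adjusted p = 0.199) and -0.73 ± 0.32 for creld2 (adjusted p = 0.193). Without control 1m in the fit, manf passed in this comparison (adjusted p = 0.0207), and it was called in 3 of 16 alternative fits. Over the 11 chaperones and co-chaperones, the median was -0.50 for glucose against control with 0 above 0, 0.11 for salt against control with 7 above 0, and -0.72 for glucose against salt with 0 above 0.

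**Figure D4:**
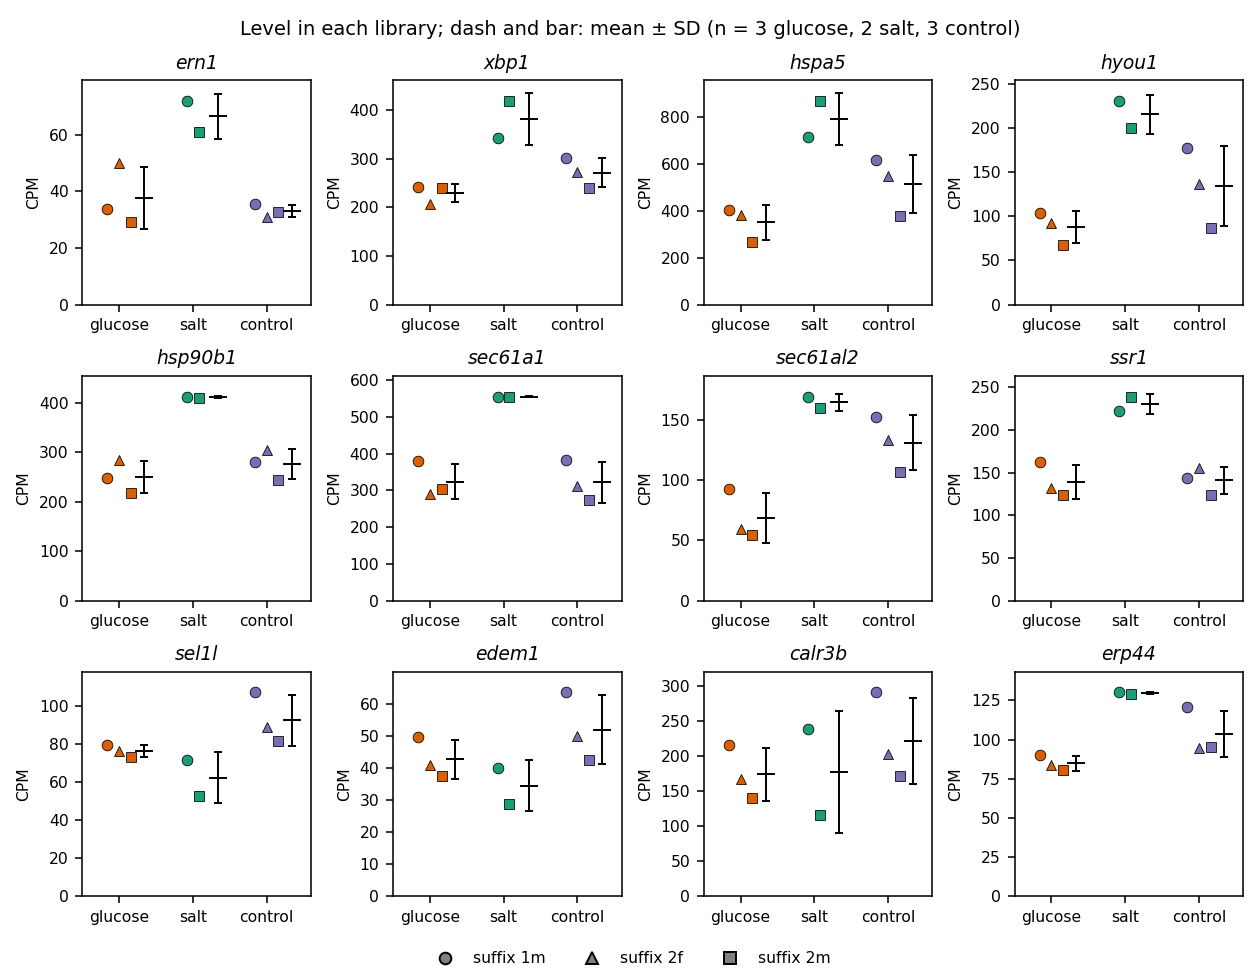
CPM of 12 genes in each library, by group (glucose, salt, control), with the marker shape for the column suffix and a dash with bar for the mean ± SD (n = 3, 2 and 3). Salt lies above glucose and control for ern1, hspa5, hyou1, hsp90b1, sec61a1 and ssr1 and below both for sel1l, and sec61al2 is lowest in glucose.

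The lectin chaperones hold newly made glycoproteins. The membrane lectin gene canx was at 476, 416 and 387 CPM in glucose, 621 and 512 CPM in salt and 499, 551 and 430.5 CPM in controls, and calr, the calreticulin gene, at 138, 158 and 131 CPM in glucose, 270.5 and 195 CPM in salt and 303, 163 and 167 CPM in controls. For calr all 3 glucose libraries lay below every control and salt library, although glucose 2f and control 2f were close together. Its log2 fold change was -0.57 ± 0.26 in glucose over control (unadjusted p = 0.0532, adjusted p = 0.761) and -0.71 ± 0.28 in glucose over salt (adjusted p = 0.164, and 0.0374 without control 1m). The change over salt was called in 2 of 16 alternative fits. For the other calreticulin genes the salt libraries lay far apart. For calr3a salt 1m and 2m were at 266 and 150.1 CPM and for calr3b at 238 and 115 CPM, against 329, 225 and 198 and 291, 202 and 172 CPM in controls. Salt differed from control by -0.27 ± 0.29 for calr3a and -0.33 ± 0.34 for calr3b, with the salt libraries on either side of the controls' lower values.

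Enzymes of disulfide formation mostly stood above control in salt, 7 of 8 genes with a median of 0.30, and none passed. The isomerase gene pdia3, whose product acts on glycoproteins, was at 255, 222 and 206 CPM in glucose, 311 and 349 CPM in salt and 261, 282 and 215 CPM in controls, and salt lay above the rest. For erp44, which retains client enzymes in the early secretory pathway, the levels were 90.3, 83.6 and 80.9 CPM in glucose, 130.0 and 129 CPM in salt and 121, 94.6 and 95.5 CPM in controls. All glucose libraries lay below all controls and all controls below both salt libraries. The differences were -0.29 ± 0.16 in glucose and 0.32 ± 0.17 in salt against control (adjusted p = 0.761 and adjusted p = 0.275) and -0.61 ± 0.17 in glucose against salt (adjusted p = 0.072, and 0.028 without control 1m). The last difference was called in 2 of 16 alternative fits. This gene spans sec61b on the other strand and 5 more genes, and its counts are uncertain to that extent.

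Among the other isomerase genes, pdia5 was at 65, 50 and 56.3 CPM in glucose, 82.4 and 91.2 CPM in salt and 62.4, 65.4 and 62.9 CPM in controls, with the salt libraries highest and a difference of 0.45 ± 0.17 from control (adjusted p = 0.142). The genes pdia4 and pdia6 differed from control by -0.14 and -0.29 in glucose and 0.12 and 0.28 in salt, and both treatments overlapped controls. For pdia6 all glucose libraries lay below both salt libraries (-0.57 ± 0.19, adjusted p = 0.113). Levels of pdia2 stayed at 2.56 to 5.53 CPM. The genes of the oxidases that recharge the isomerases lay on opposite sides of controls in salt, without passing the test. Levels of ero1lb were 15.3, 13.4 and 11.4 CPM in glucose, 10.5 and 10.6 CPM in salt and 16.4, 15.5 and 12.7 CPM in controls, with salt lowest, and ero1l was at 0.97, 0.689 and 1.19 CPM in glucose, 1.36 and 2.64 CPM in salt and 1.1, 0.915 and 1.22 CPM in controls, with salt highest. These differences from control were -0.50 ± 0.24 (adjusted p = 0.223) and 0.88 ± 0.52 (adjusted p = 0.312), the second at 11 to 35 reads per library.

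Of the channel of the ER membrane, the table holds a pair of genes for its core subunit Sec61 alpha, sec61a1 (ENSDARG00000021669, chromosome 6, 40067665 to 40074363, minus strand) and sec61al2 (ENSDARG00000005675, chromosome 6, 42380375 to 42391072, minus strand). Levels of sec61a1 were 379, 289 and 304 CPM in glucose, 554 and 556 CPM in salt and 383, 311 and 273 CPM in controls. Glucose and controls overlapped, and both salt libraries stood above all of them. Those of sec61al2 were 92.4, 59.4 and 54.2 CPM in glucose, 169.5 and 159.7 CPM in salt and 153, 134 and 107 CPM in controls, with all glucose libraries below all controls and all controls below salt. Glucose differed from salt by -1.26 ± 0.25 for sec61al2 (adjusted p = 0.0267), which was called in 13 of 16 alternative fits, and by -0.78 ± 0.20 for sec61a1 (adjusted p = 0.0593). Against control, glucose differed by -0.93 ± 0.23 for sec61al2 (unadjusted p = 0.00237, adjusted p = 0.65), the lowest p of any member in that comparison, and by 0.01 ± 0.19 for sec61a1. In salt, sec61a1 differed by 0.78 ± 0.20 (adjusted p = 0.0556, 0.0447 with the block and 0.0313 without control 1m) and sec61al2 by 0.33 ± 0.25 (adjusted p = 0.442). For sec61a1 this difference was called in 3 of 16 alternative fits.

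Neither gene of the smaller Sec61 subunits passed the test. For sec61b the levels were 126, 96.2 and 97 CPM in glucose, 127 and 135 CPM in salt and 131, 93 and 87.5 CPM in controls, with overlap between salt and control 1m, and its gene lies within erp44. Those of sec61g were 48.9, 42.2 and 41.8 CPM in glucose, 32.2 and 66.7 CPM in salt and 113, 31.5 and 52.9 CPM in controls, and control 1m alone stood above the rest. Of the TRAP genes, ssr1 was at 162, 132 and 124 CPM in glucose, 222 and 239 CPM in salt and 144, 155 and 123 CPM in controls, with both salt libraries on top and a difference of 0.71 ± 0.19 from control (adjusted p = 0.0558, and 0.0442 with the block). The difference was called in 2 of 16 alternative fits. Glucose differed from salt by -0.73 ± 0.19 for ssr1 (adjusted p = 0.0544), which was called in 5 of 16 alternative fits. The ssr1 gene shares its locus with rmdn1 on the same strand, which had 142 to 372 reads. The genes ssr2, ssr3 and ssr4 were highest in control 1m, at 322, 418 and 377 CPM, above 127 to 202 CPM in the other controls. Their log2 fold changes were -0.31, -0.55 and -0.62 in glucose and -0.10, 0.13 and 0.20 in salt, and none passed. Over the 8 genes of the channel and TRAP, the median was -0.43 in glucose and 0.26 in salt against control and -0.71 in glucose against salt.

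Factors of ER-associated degradation pull misfolded proteins out of the ER for the proteasome. Of the 9 genes, 7 stood below control in salt (median -0.32) and 8 in glucose (median -0.28), and none passed the test in any comparison. The gene sel1l, the adaptor of the Hrd1 ubiquitin ligase, was at 79.5, 76.2 and 73 CPM in glucose, 71.9 and 52.9 CPM in salt and 107, 88.8 and 81.5 CPM in controls. All glucose libraries lay below all controls and both salt libraries below all glucose libraries. Salt differed from control by -0.57 ± 0.20 (unadjusted p = 0.0184, adjusted p = 0.117) and glucose by -0.28 ± 0.18 (adjusted p = 0.761). The ligase gene itself, syvn1, had its salt libraries on top, with 47.3, 39.6 and 34.8 CPM in glucose, 65.8 and 59.9 CPM in salt and 51.8, 49.1 and 36.1 CPM in controls, a difference of 0.46 ± 0.22 from control (adjusted p = 0.211).

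Of the EDEM genes, whose products trim mannose from misfolded glycoproteins, edem1 was at 49.6, 41.1 and 37.6 CPM in glucose, 40.1 and 28.9 CPM in salt and 63.6, 49.9 and 42.4 CPM in controls. Both salt libraries lay below all controls, and salt differed by -0.59 ± 0.24 (adjusted p = 0.166). The gene edem2 differed by -0.50 ± 0.23 (adjusted p = 0.198), with salt at 13.7 and 12.9 CPM against 19.7, 18.7 and 18 CPM in controls, and edem3 by -0.32 ± 0.20 with overlap. Of the derlins, which line the exit route, derl2 had glucose at 20.8, 18.9 and 19.3 CPM and salt at 20.6 and 16.6 CPM against 27.9, 21.5 and 23.1 CPM in controls, both treatments below all controls. The log2 differences of derl1 and derl2 were -0.29 and -0.30 in glucose and 0.04 and -0.38 in salt. For derl3, which overlaps 5 genes, all groups overlapped. The gene herpud1, whose product joins the Hrd1 complex, was at 35.9, 37.4 and 37.2 CPM in glucose, 45.1 and 46.7 CPM in salt and 57.7, 46.5 and 38.8 CPM in controls, with all glucose libraries below the rest and a difference of -0.37 ± 0.18 from control (adjusted p = 0.761). The mitochondrial namesake dnajc30b stood -0.80 ± 0.38 in salt from control (adjusted p = 0.22).

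**Figure D5:**
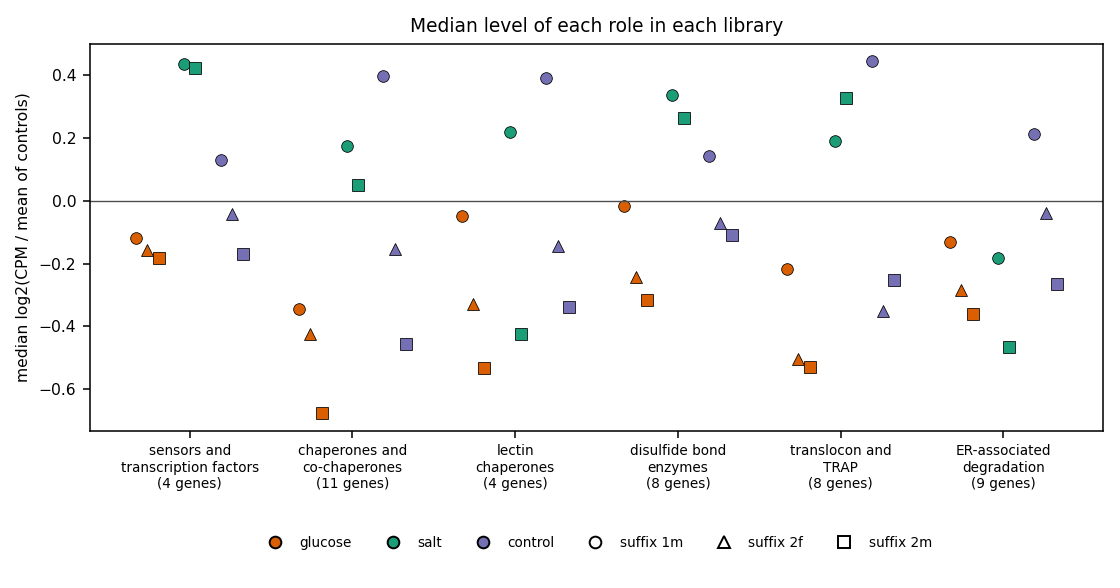
Median over the genes of each role of log2(CPM over the mean of the controls) in each library, with colour for the group and shape for the suffix. In the sensors and disulfide enzymes the salt libraries lie above all others, in ER-associated degradation they lie at -0.18 and -0.46, and control 1m is the highest control in every role.

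By role, the median of glucose against salt was 0.11 over the 9 degradation genes (6 above 0), and -0.55 over the disulfide enzymes (1 of 8 above 0), -0.22 over the lectins (1 of 4 above 0), -0.73 over the sensors, -0.72 over the chaperones and -0.71 over the channel and TRAP genes (0 above 0 in each of the last 3). Over all tested genes 52.5% stood above 0. The grouping by role was made with the values known and was not tested.

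Other genes of the pathway were read from 7 lists of 170 tested genes that are no members. Salt against control called 6 of them higher and 7 lower (7.65% together, beside 5.35% of all genes). With the block 9 were higher and 12 lower, beside 1216 and 1334 of all genes. Leaving out 1 control or glucose library gave 0 to 11 higher and 2 to 4 lower. Over all genes these fits called 76 to 685 higher and 71 to 532 lower. Glucose against salt called 11 lower and 2 higher (7.65% together, beside 4.95% of all genes), and glucose against control 0. With 1 glucose or control library left out, glucose against salt called 0 to 20 lower and 1 to 7 higher. Over all genes, 38 to 1357 were called lower in these fits. Of the 20 genes of the Perk and Atf4 arm, 11 stood above 0 and 9 below 0 in salt against control (median 0.18). The test called 1 of them (5%, beside 5.35% of all genes). This gene, atf4a, rose in salt, with 322, 249.9 and 285 CPM in glucose, 516 and 623 CPM in salt and 281, 318 and 300.1 CPM in controls (0.93 ± 0.18, adjusted p = 0.0274). The stress-induced transcription factor gene atf3 was at 7.13, 7.7 and 9.33 CPM in glucose, 13.7 and 74.5 CPM in salt and 10.6, 15 and 15.9 CPM in controls, with salt 2m alone above the controls. It fell in glucose against salt (-2.45 ± 0.54, adjusted p = 0.0361) and did not pass in salt against control (adjusted p = 0.0904). For ddit3 (Chop), named after its values were seen, the levels were 9.92, 17.9 and 16.3 CPM in glucose, 20.3 and 79 CPM in salt and 27.3, 24.1 and 21.4 CPM in controls, again with salt 2m alone above the controls and no call in salt against control (adjusted p = 0.195).

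Among 21 other stress regulators, nfybb, a subunit gene of the factor that binds CCAAT boxes, fell in salt, to 1.97 and 1.58 CPM against 13.8, 16 and 18.5 CPM in controls (-3.17 ± 0.39, adjusted p = 0.00579). The protease gene mbtps1, which activates Atf6, and SIL1, a BiP exchange factor gene, fell as well (-1.11 ± 0.26 and -0.96 ± 0.22, adjusted p = 0.0435 and 0.038). The ER-anchored transcription factor gene nfe2l1b rose in salt (1.22 ± 0.22, adjusted p = 0.0211). In glucose against salt, nfybb was called higher (3.14 ± 0.39, adjusted p = 0.00537) and nfe2l1b lower (-1.44 ± 0.22, adjusted p = 0.013). The paralog of nfybb, nfyba, was at 69.8 and 74.9 CPM in salt and 67.3, 82.4 and 68.6 CPM in controls (-0.009 ± 0.17, adjusted p = 0.979). Of 32 other folding and redox enzymes, agr2, an isomerase gene of mucous cells, fell in salt (-1.45 ± 0.21, adjusted p = 0.00958). There tnrc5 fell (-1.38 ± 0.32, adjusted p = 0.0401) and selm, a selenoprotein gene, rose (0.82 ± 0.18, adjusted p = 0.0342). Glucose against salt had agr2 called higher (1.12 ± 0.20, adjusted p = 0.0207) and selm lower (-0.84 ± 0.18, adjusted p = 0.0313).

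Of 34 genes of transport from ER to Golgi, 22 stood above control in salt (median 0.15), and sec24a, a coat subunit gene, and mia3, a collagen export factor gene, rose (1.12 ± 0.18 and 0.80 ± 0.16, adjusted p = 0.0146 and 0.0295). In glucose against salt these 2 fell with sec24d and the KDEL receptor gene kdelr2a (-0.92 ± 0.19 and -0.94 ± 0.23, adjusted p = 0.0276 and 0.0479). Of 23 translocation genes tram2 rose in salt (1.23 ± 0.29, adjusted p = 0.042). Of 22 other degradation genes the ubiquitin ligase gene rnf103 and dnajb14 fell in salt (-1.18 ± 0.28 and -1.54 ± 0.36, adjusted p = 0.0437 and 0.0403), and in glucose against salt vcp, the extraction ATPase gene, and rnf139 fell (-0.92 ± 0.21 and -0.84 ± 0.20, adjusted p = 0.0433 and 0.046). None of 18 genes of N-glycan transfer and quality control passed in any comparison.

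Markers of ER-rich cell types were read beside these results. The summed level of 9 hatching gland genes, xbp1 among them, was 1909 to 2462 CPM in glucose, 2114 and 2271 CPM in salt and 2229 to 2469 CPM in controls. That of 14 notochord genes was 976 to 1490.3 CPM in glucose, 1120.5 and 1513 CPM in salt and 926 to 1194 CPM in controls, and that of 14 liver genes was 9138 to 9613 CPM in glucose, 8697 and 8970.4 CPM in salt and 7349 to 9670.5 CPM in controls. That of 14 cartilage and bone genes was 768 to 1303 CPM in glucose, 928 and 1161 CPM in salt and 597 to 988 CPM in controls, and that of 8 genes of the yolk syncytial layer was 6525 to 7302 CPM in glucose, 5495 and 6841 CPM in salt and 5732 to 8034 CPM in controls. For these 5 lists the groups overlapped, except that all glucose libraries lay above both salt libraries for the liver genes. Of the 12 tested liver genes 11 stood above 0 in glucose against control (median 0.48, 0 called). An unadjusted p below 0.05 was found for 3 of them, all higher, beside 380 of all 20562 genes higher with such a p. The gene vtna was called higher in glucose against salt (3.27 ± 0.77, adjusted p = 0.0446). Of the 8 genes of the yolk syncytial layer, mtp was called higher in salt, at 67.1 and 137 CPM, against 46.9, 40.5 and 36.8 CPM in controls (adjusted p = 0.0403), and lower in glucose against salt (-1.25 ± 0.30, adjusted p = 0.0464). Of the 9 hatching gland genes, agr2 alone was called lower in salt against control, and no notochord, cartilage or pancreas gene was called in any comparison. The summed level of 11 genes of mucous cells and ionocytes of the skin was 176 and 191 CPM in salt, below 276 to 361 CPM in glucose and 259 to 358 CPM in controls, and of its 10 tested genes 2 (agr2 and atp1b1b) were called lower in salt against control, beside 2.41% of all genes. Of the other 8, 3 stood above 0 in that comparison, and itln1 was the highest (1.84 ± 0.69, adjusted p = 0.134) and was called lower in glucose against salt (-2.99 ± 0.73, adjusted p = 0.0477). The part of these markers in the results was not tested. Exocrine pancreas genes summed to at most 16.3 CPM in any library, with the trypsin gene at 1.52 CPM or below and ctrl at 0 throughout.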

How the data were processed

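The authors deposited unnormalized whole-number counts of reads per gene. The submitters' processing notes list edgeR 3.22.5, DESeq2, featureCounts 1.5.0-p3, HISAT2 2.0.5 and StringTie 1.3.3b, and GRCz11 as the build. How they were ordered or set, strand and shared reads included, is not given in the sources used here. In the labels, the extract text describes an array protocol, while the values are whole-number counts and were treated as such. Gene length is the table's own value.

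Genes were tested with edgeR 4.0.16 (R 4.3.3, limma 3.58.1): TMM scaling, filterByExpr by group with a minimum count of 10, 1 quasi-likelihood fit of all 8 libraries (5 residual degrees of freedom, which share 1 estimate of the spread), and Benjamini-Hochberg adjustment over 20562 genes, called at adjusted p below 0.05. Fold changes are log2 with SE. The fit was run on simulated independent libraries with known changes in glucose or salt against control. Glucose against salt and the likeness of libraries with the same suffix were not simulated. Counts of 3 mark the floor, for counting error only. Alternatives were 16 other fits, among them DESeq2 1.42.0. Fits that leave 1 salt library enter the tallies over 16 fits.

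Columns were matched to groups by name. Their suffixes (1m, 2f, 2m) cannot be linked to the labels' replicate numbers. After removal of group means, glucose and control libraries of the same suffix correlated at 0.497 (1m), 0.136 (2f) and 0.484 (2m), although glucose 2m correlated at 0.152 with control 2f. Salt correlated at 0.358 to 0.417 with its partners. With 2 salt libraries, removal of their mean leaves mirror images, so that these salt values rest on 1 difference and are not separate observations. The suffix was taken to pair libraries as a hint from the data, and a fit with it as a block is given where it changes a call. Within a group, no library differed from another by less than sampling noise. Pairs across groups were not checked for this.

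Genes named are a fixed set of core members, every member called, the 3 lowest p where none was called, up to 4 called genes per list and comparison, and the highest and lowest of each family per kilobase. The other members (erp44, ssr1, ssr4, calr3a, calr3b, pdia5, sec61b, sec61g, derl2 and dnajc30b) were named outside this rule, with their values known. Members, lists and tests were chosen with earlier results of these data known. Of the genes in the table, 14 members overlap another gene, 12 of them on the other strand.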

Additional observations from a re-analysis of the deposited data

How the results depend on the processing

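Of 2157 log2 fold changes of the members under the alternatives, 2090 kept their side of the threshold without turning round by more than 1 SE, 25 lost a call and 41 gained one. Of the 2157 values 99 had another sign than in the reported fit, and 1 of these lay beyond 1 SE in both fits: dnajb11 in salt against control was 0.24 without control 1m and salt 2m, against -0.38 in all libraries, and the cause was not tested. In salt against control, members called higher numbered 0 with library totals alone, 4 with DESeq2 and 0 with only the groups compared. They numbered 5 with the replicate block and 0 to 2 with 1 control or glucose library left out. Over all genes these fits called 400, 1435, 49, 1216 and 76 to 685 higher, beside 605 in the reported fit. The median of the members was 0.44 without control 1m and salt 2m, and -0.00032 to 0.41 with 1 library left out. In glucose against salt, members called lower numbered 5 with the stricter filter (minimum count 30), 10 with DESeq2, 9 with only the groups compared and 6 with the replicate block. Over all genes these fits called 640, 1450, 765 and 971 lower, beside 627 in the reported fit. With 1 glucose or control library left out, 0 to 14 members were called lower, beside 38 to 1357 of all genes. In glucose against control 0 members were called in any alternative. Of the related genes, DESeq2 called 1 lower in glucose against control, 15 higher and 11 lower in salt against control, and 7 higher and 20 lower in glucose against salt. With only the groups compared, 0 were higher and 1 lower in salt against control. The replicate block gave 9 higher and 12 lower in salt against control, and 7 higher and 16 lower in glucose against salt. Library totals alone gave 7 lower in glucose against salt. With 1 control or glucose library left out, the related genes called were 0 to 11 higher and 2 to 4 lower in salt against control. In glucose against salt they were 1 to 7 higher and 0 to 20 lower. Beyond these and the calls named in the report, the block changed no call of a member. Over all genes in salt against control, DESeq2 called 1435 higher and 1399 lower, and only the groups compared 49 and 23. The block called 1216 and 1334 and library totals alone 400 and 504, beside 605 and 496. In glucose against control, DESeq2 called 93 genes lower and the block 4 higher and 32 lower, beside 0. Scaling by library totals alone moved the median of all genes in glucose against salt by 0.11, to 0.15, while that of the members was -0.31. Where a fit left 1 salt library, that library was assumed to vary like the other groups.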

Other observations

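The members' near relatives that the symbol pattern did not take gave no call. The disulfide isomerase gene pdia7 (zgc:77086 in the table) was at 89.9, 91.6 and 78.0 CPM in glucose, 57.5 and 37.2 CPM in salt and 58.4, 90.8 and 68.9 CPM in controls, and salt differed from control by -0.62 ± 0.25 (edgeR, adjusted p = 0.158). Of ATF6B, pdia8 (zgc:100906), ern2 and SEL1L3, none had an adjusted p below 0.05 in any comparison.

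Ratios of CPM within a library, 5 of which were computed after the values were seen and none tested, separated the groups for some pairs. The ratio of sec61al2 to sec61a1 was 0.244, 0.206 and 0.178 in glucose, 0.306 and 0.287 in salt and 0.399, 0.430 and 0.391 in controls. It was lower in both treatments than in any control. The log2 fold change against control was -0.93 in glucose and 0.33 in salt for sec61al2, and 0.01 and 0.78 for sec61a1. The ratio of hspa5 to sel1l was 5.09, 5.02 and 3.64 in glucose, 9.91 and 16.4 in salt and 5.76, 6.16 and 4.62 in controls. It was highest in salt, and glucose and controls overlapped.

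The pair of paralogs calr3a and calr also differed in their ratio, at 1.80, 1.43 and 1.45 in glucose, 0.983 and 0.770 in salt and 1.09, 1.38 and 1.18 in controls. Glucose lay above controls and salt lay below them in every library. The ratio of calr3b to calr was 1.56, 1.06 and 1.07 in glucose, 0.881 and 0.591 in salt and 0.960, 1.24 and 1.03 in controls, where glucose and controls overlapped. The ratio of hspa5 to edem1 was 8.16, 9.31 and 7.08 in glucose, 17.8 and 30.04 in salt and 9.70, 11.0 and 8.88 in controls, with salt highest and the others overlapping.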
